A study of Mus musculus with 6 samples.

Results

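The albumin gene family encodes abundant carrier proteins that hepatocytes secrete into blood plasma. The members described here were chosen by gene name and comprise Alb, Afp, Afm, Gc and 5830473C10Rik, all on mouse chromosome 5. Of 26910 local splicing variations measured on both diets in the whole series, 57 belonged to these genes, with 237 of 68110 junctions and introns. A local splicing variation (LSV) is an exon together with all the junctions, and any retained intron, that leave it or enter it. Each junction or intron has a PSI, the share of the variation's reads that use it, from 0 to 1.

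The groups were hepatocytes of male C57BL/6J mice fed a high-fat diet (HFD, 60% fat; 3 libraries) and hepatocytes of male C57BL/6J mice fed a low-fat diet (LFD, 10% fat; 3 libraries). Both groups were raised on a 13.5% fat chow, changed to their diet at 8 weeks of age, and stayed on it for 12 weeks. The study asked how alternative splicing in hepatocytes differs between these diets. RNA was read by stranded, paired-end mRNA sequencing. Each deposited PSI pools the 3 libraries of a diet, so there is no value per library, the spread between animals is unknown, and no PSI difference computed from them has a replicate test. The p-values below are those of the authors' JUM table, and how they treat the spread between libraries is not known here. The SD beside a PSI is the square root of its posterior variance and covers counting of reads within the pool. Read depth per library is unknown, and the labels do not say whether a library came from 1 animal. The cell type label was set against marker genes: 10 of 10 hepatocyte marker genes had an LSV on both diets, against 2 of 7 macrophage, 2 of 7 endothelial, 1 of 6 stellate and 1 of 6 bile duct marker genes. Having an LSV needs reads and more than 1 junction, so these counts do not measure how many cells of a type were present. In such bulk samples, fewer cells of a type and less RNA per cell cannot be told apart.

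Alb encodes serum albumin, the main protein of plasma, which carries fatty acids, hormones and drugs. Afp encodes alpha-fetoprotein, its fetal counterpart, which the liver makes before birth and largely stops making afterwards. Afm encodes afamin, a plasma glycoprotein that binds vitamin E, and Gc encodes the vitamin D-binding protein. 5830473C10Rik, named Albfm1 in RefSeq, lies next to Afm and is classed as a member of the albumin superfamily. The genes arose by duplication, and their proteins are built of repeated domains held together by disulphide bonds.

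The genes share one exon plan (GENCODE M21 annotation, build GRCm38, the same build as mm10). Gc lies at chr5:89417522-89457898 on the minus strand. The others lie on the plus strand, Alb at chr5:90460897-90476602, Afp at chr5:90490737-90508907, Afm at chr5:90518932-90553543 and 5830473C10Rik at chr5:90561107-90597871. The gap between neighbours was 14134 bases from Alb to Afp, 10024 from Afp to Afm and 7563 from Afm to 5830473C10Rik, whereas Gc lay 1002998 bases from Alb. The main transcript, taken as the one with the longest coding sequence, had 15 exons in Alb, Afp and Afm, 14 in 5830473C10Rik and 13 in Gc. Exon 4 was 212 bases long, exon 5 133 bases, exon 7 130 bases and exon 10 98 bases in every member. Exon 9 was 133 bases long in Alb, Afp, Afm and 5830473C10Rik, and 130 in Gc. Compared by exon number, the members differed most at the ends, and in exon 12, which was 59 bases long in Gc against 224 in Alb. These exons do not hold the same place in the coding sequence. Exon 12 is the last coding exon of Gc, with 33 coding bases. In Alb that is exon 14, of 68 bases with 39 coding.

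**Figure D1:**
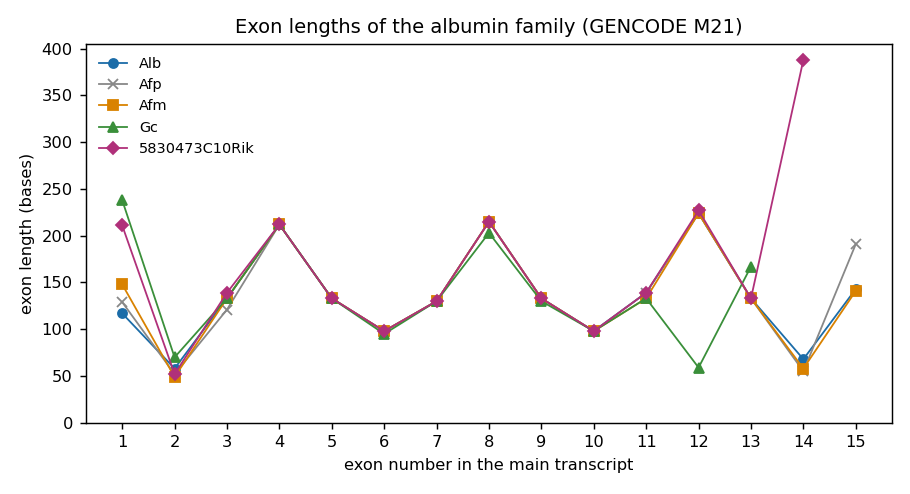
Length in bases of each exon of the main transcript (vertical axis) by exon number (horizontal axis), 1 line per gene. The 5 lines meet at exons 4, 5, 7 and 10, with 212, 133, 130 and 98 bases. They part at exon 12, which in Gc is the last coding exon, with 59 bases.

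The sequences around 2 of the shared exon borders are shown because the largest PSI differences of 5830473C10Rik and of Afm lie there. Neither was called different by the rule given below. Each line holds the last 15 bases of the upstream exon in lower case and the first 15 bases of the downstream exon in capitals, 5′ to 3′, from the GENCODE M21 transcripts. The border of exons 9 and 10 reads as follows.
Alb exon 9-10: tgctacggcacagtgCTTGCTGAATTTCAG
Afp exon 9-10: tgtcaggacaatctgGAAGAAGAATTGCAG
Afm exon 9-10: tgttaccgccatgtgGAGGATAAATTCAAT
Gc exon 9-10: tgtttcagcactcagAGTCCCCTGCTGAAG
5830473C10Rik exon 9-10: tgccaccagcctgggAAAGAGATGTTCCAA
Each of the 5 begins with tg, and 17 of 30 bases were shared with Alb in Afp and in Afm, 14 in Gc and 13 in 5830473C10Rik.

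The border of exons 6 and 7, where Afm used an additional acceptor, is given in the same way.
Alb exon 6-7: agcttttaaagcatgGGCAGTAGCTCGTCT
Afp exon 6-7: aaacctccaggcaacAACCATTATTAAGCT
Afm exon 6-7: ggtcttaaactctatAAACGTTGCTGTATT
Gc exon 6-7: aaaatcaaggctgagCCATCTCATAAAACT
5830473C10Rik exon 6-7: agtagcaagtgcagtAGAGTTGATTCTACT
Here 12 of 30 bases were shared with Alb in Afm and in 5830473C10Rik, 11 in Afp and 7 in Gc, although exon 7 has the same length in all of them.

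In Alb, Gc and Afm the measured junctions of the main transcript had a PSI close to the top of the scale on both diets, and the differences between diets were found mainly in 5830473C10Rik. Afp had no value. No entry was called different, where a call needs a PSI difference of at least 0.2 and a 95% interval, from the summed posterior variances, that leaves out 0. In the whole series 284 of 68110 entries met that rule (0.417%), so a count of 0 among 237 entries is near that background. Of the 237, 198 (83.5%) lay within 0.0001 of the lowest or highest PSI found, 0.0125 or 0.9875, on both diets. In the series 28.3% did. An entry at the same end on both diets cannot be called, so the count of 0 says little. Without the minimum difference, the interval left out 0 for 12 member entries (10.1% of entries in the series), of which 10 were in 5830473C10Rik and 2 in Afm. Entries of 1 LSV divide the same reads, so these are not 12 separate differences. The 2 of Afm are the 2 sides of 1 choice, and the 10 count the junction of exons 9 and 10 from both its exons. With a minimum of 0.05 there were 8 member entries (7.1% in the series), and with 0.1 there were 2 (2.87% in the series). The median over the 57 LSVs of the largest difference was under 0.0001, against 0.00681 over all LSVs. A largest difference of at least 0.05 was reached by 4 of 57 LSVs (7.02%), all of 5830473C10Rik, against 14.3% of LSVs in the series. At least 0.1 was reached by 1 member LSV (4.5% of LSVs in the series) and at least 0.2 by 0 (0.624% in the series). Alb, Gc and Afm together had 0 of 49.

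**Figure D2:**
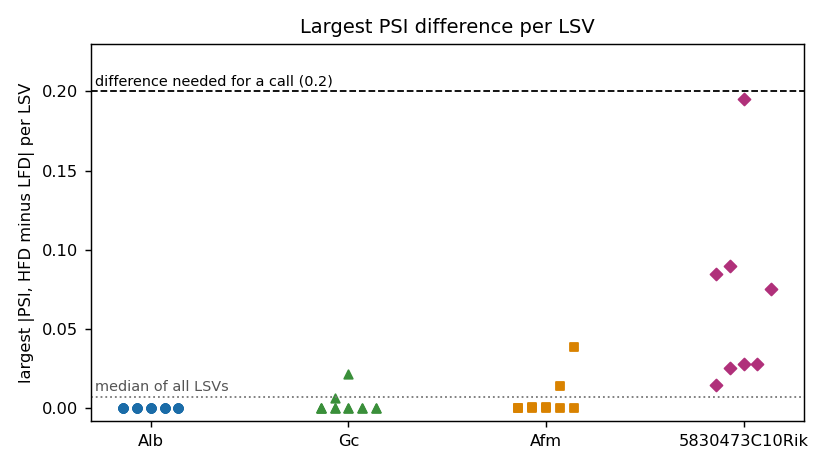
Largest absolute PSI difference between HFD and LFD in each LSV (vertical axis), by gene, 1 point per LSV and both diets pooled over 3 libraries. The 26 Alb points lie at 0, the highest Gc and Afm points at 0.0217 and 0.0384, and the highest of 5830473C10Rik at 0.195, just under the dashed line at 0.2.

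Alb had many recorded junctions and no measurable difference between diets. It held 26 LSVs with 144 entries, and of 5978 genes only 20 had more LSVs and 1 had more entries. All 14 junctions of its main transcript lay in an LSV, and each had a PSI of 0.9875 on HFD and 0.9875 on LFD. That is the highest PSI found in either table, as 0.0125 is the lowest, so all 144 Alb entries sat at an end of the scale on both diets. In the series 28.3% of entries did. A difference in Alb junctions below this limit is not detectable in these tables.

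The minor Alb junctions, all at 0.0125 on both diets, are a catalogue of rare joins as recorded. Of 76 distinct spliced junctions, 14 were the main ones and 22 skipped 1 or more exons. The skipped stretch ran from 58 to 1515 bases, and its length was a multiple of 3, the number of bases in a codon, in 16 of the 22 (72.7%). Among the 91 exon pairs that could be joined by skipping in Alb, 36 (39.6%) leave out a multiple of 3. These counts include joins to exon 15, which holds no coding bases. From exon 2, the recorded joins went to exons 5, 7, 9, 11 and 13, each leaving out a multiple of 3. A further 9 junctions used a donor outside the main transcript, of which 2 are in another GENCODE transcript and 7 in none. An acceptor outside the main transcript was used by 14, and both ends lay outside it in 17. Some of those with both ends outside it spanned only 21 to 30 bases. Another had the 1007 bases of intron 7 with both ends moved. Whether such joins are spliced introns was not tested. Among the donors and acceptors of junctions with 1 new end, 10 lay within 30 bases of the main site, and 7 of these shifts were a multiple of 3.

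In the authors' deposited table from JUM, a second splicing program, Alb had 1 event, at the acceptor of exon 4. Only events with a p-value under 0.05 are listed there, so shares of JUM events below are shares of listed events. The change in PSI there was 6.67e-05 (HFD minus LFD) in the authors' deposited table, with an adjusted p of 0.316.

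Afp had no LSV on either diet and no entry in the tables of differences. An LSV requires more than 1 junction with enough reads, so its absence cannot tell a transcript that is not expressed from one that is spliced in a single way.

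Gc was nearly as uniform as Alb. It had 13 LSVs and 43 entries, of which 38 (88.4%) sat at an end of the scale on both diets. Of the 12 junctions of its main transcript, 8 lay in an LSV, with 12 values, and the lowest was 0.981 on HFD and 0.987 on LFD. That lowest value belonged to the junction of exons 5 and 6, with 0.981 ± 0.011 on HFD and 0.987 on LFD. The largest Gc difference lay at an unannotated exon of 104 bases inside intron 1 (chr5:89455431-89455534). Seen from exon 1 and from exon 2, the joins to that exon had 0.0125, the lowest PSI, on both diets, so little of Gc used it. Among the reads leaving that exon, the junction to exon 2 had a PSI of 0.930 ± 0.019 on HFD and 0.921 ± 0.018 on LFD. The retained intron beside it had 0.0147 ± 0.0072 on HFD and 0.0364 ± 0.013 on LFD, and the interval of the difference of -0.0217 held 0. In the authors' deposited table from JUM, Gc had 3 events, with changes of at most 0.00123 and adjusted p-values of 0.319, 0.371 and 0.395.

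**Figure D3:**
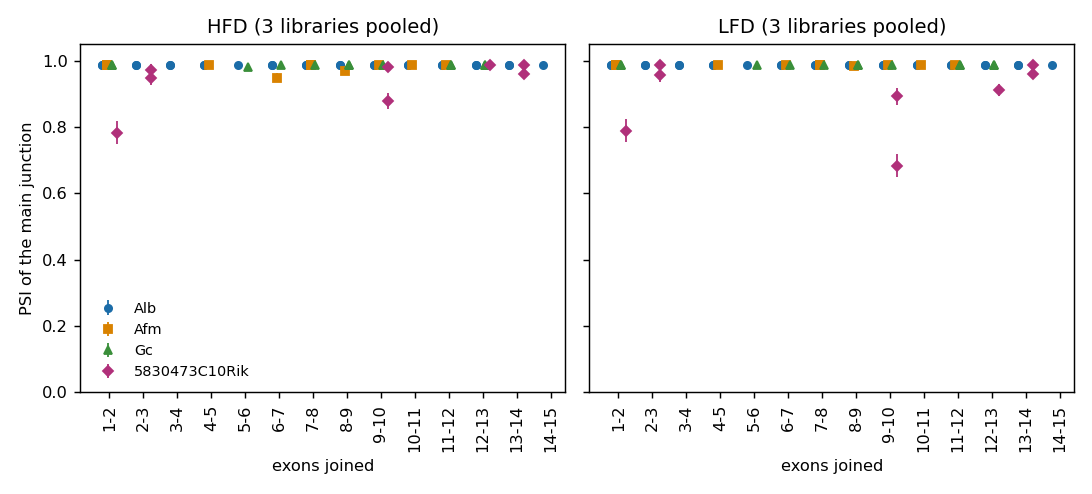
PSI of each junction of the main transcript (vertical axis) by the pair of exons joined (horizontal axis), HFD in the left panel and LFD in the right, 3 libraries pooled per diet. Points are posterior means with posterior SD, and a junction seen from both its exons has 2 points. Alb lies at 0.9875 throughout, and the lowest points are 5830473C10Rik values of 0.782 on HFD and 0.683 on LFD.

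Afm showed 1 shifted splice site and, by JUM, more retained intron on HFD. It had 10 LSVs and 25 entries, 16 of them (64%) at an end of the scale on both diets. The main junctions had PSI of at least 0.95 on both diets in 9 of 10 values. The exception was the junction of exons 6 and 7. An unannotated acceptor 23 bases upstream of exon 7 had a PSI of 0.0514 ± 0.013 on HFD and 0.0130 ± 0.0035 on LFD. The annotated acceptor had 0.949 ± 0.013 on HFD and 0.987 ± 0.0035 on LFD. The minor acceptor thus stood 0.0384 higher on HFD, more than the posterior SDs but well below 0.2. It lengthens exon 7 from the 130 bases shared by the family to 153, and 23 is not a multiple of 3. In the authors' deposited table from JUM, the same acceptor changed by 0.0194 (HFD minus LFD), with p = 0.00203 and an adjusted p of 0.0681, which misses the threshold of 0.05.

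The authors' deposited table from JUM also lists 2 Afm introns. Intron 4 (chr5:90523943-90524789, 847 bases) was retained more on HFD by 0.189 in the authors' deposited table, with an adjusted p of 0.00802. It was the only member event past the adjusted p: 1 of 9 member events (11.1%), against 83 of 470 in the table (17.7%). Of the 118 retained introns in that table, 36.4% passed and 83.1% had a positive change. Among the 43 introns that passed, 42 had a positive change, and Afm intron 4 ranked number 16 by size. Intron 10 (chr5:90547925-90548741, 817 bases) changed by 0.0791 in the authors' deposited table, with p = 0.0212 and an adjusted p of 0.270. The PSI tables hold no intron entry for Afm, and the spliced junctions across introns 4 and 10 had a PSI of 0.9875 on HFD and 0.9875 on LFD. Those values are shares among spliced junctions only. They leave out intron reads, so they do not measure retention and cannot be set against the JUM changes.

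Intron 10 is part of an exon in 1 annotated Afm transcript, Afm-202, so its ends can be shown from the transcripts, with intron bases in capitals and exon bases in lower case.
Afm intron 10 start: cactctgcagcgccaGTAGGTCATCTGCGT
Afm intron 10 end: TGTGTGTTCTCTCAGtttccttgtcaagtt
The intron opens with GT and closes with AG, the usual ends of an intron, and its GC content is 42.0%.

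5830473C10Rik was the least uniform member. None of its 25 entries in 8 LSVs sat at an end of the scale on both diets, and its median largest difference was 0.0516. Only 3 of its 8 main junction values were at least 0.95 on both diets. Of the 13 junctions of its main transcript, 6 lay in an LSV on at least 1 diet, and some were seen from both exons. The interval of the difference left out 0 for 4 of those 8 values, of which 3 were higher on HFD. These 3 were the junction of exons 9 and 10, counted from both its exons, and that of exons 12 and 13. The other, leaving exon 13 for exon 14, was lower on HFD. Seen entering exon 14, the same junction was 0.0255 higher on HFD, with an interval that held 0. The interval held 0 for 4 of the 8 values.

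The largest difference lay at exon 10, where reads came either from exon 9 or from an unannotated exon between them. Among reads entering exon 10, the junction from exon 9 had a PSI of 0.878 ± 0.025 on HFD and 0.683 ± 0.034 on LFD. The junction from the outer donor of the additional exon had 0.120 ± 0.025 on HFD and 0.286 ± 0.033 on LFD. Their differences, HFD minus LFD, were 0.195 (95% interval 0.112 to 0.278) and -0.166 (-0.248 to -0.0842). Direct joining of exons 9 and 10 was thus higher on HFD, and the additional exon lower. With 0.195 the LSV stands just under the 0.2 that a call needs, and 0.673% of LSVs in the series had a largest difference as large or larger.

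Seen from exon 9, the same choice was smaller. The junction to exon 10 had 0.982 ± 0.011 on HFD and 0.892 ± 0.025 on LFD. The entries into the additional exon summed to a PSI of 0.0293 on HFD and 0.108 on LFD, against sums into exon 10 of 0.133 on HFD and 0.317 on LFD. No entry lies below 0.0125, so the HFD sum of 2 entries from exon 9 is close to its floor. Both views put more of the additional exon on LFD, and they differ in how much. The exon (chr5:90581037-90581185) is 149 bases long with its outer sites, which is not a multiple of 3. An inner acceptor makes it 145 bases and an inner donor 108.

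The authors' deposited table of PSI differences, which came from another MAJIQ run, labelled strict in its header link, lists this LSV as its only entry for the family. The junction of exons 9 and 10 had 0.886 on HFD and 0.683 on LFD in the authors' deposited table, a difference of 0.205. In the series 0.36% of LSVs measured on both diets were listed there. In the authors' deposited table from JUM, the same choice changed by 0.173 with p = 0.0378 and an adjusted p of 0.362, in the same direction. These tables draw on the same 6 libraries and do not replicate each other.

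At the other end of exon 10, reads leaving the exon used the annotated donor or a donor 139 bases downstream, which lengthens the exon from 98 to 237 bases. This LSV was present for LFD only, with 0.550 ± 0.042 for the annotated donor and 0.448 ± 0.042 for the downstream donor. In the authors' deposited table from JUM, the annotated donor changed by 0.348 (HFD minus LFD), the largest member change there, with p = 0.00788 and an adjusted p of 0.153.

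**Figure D4:**
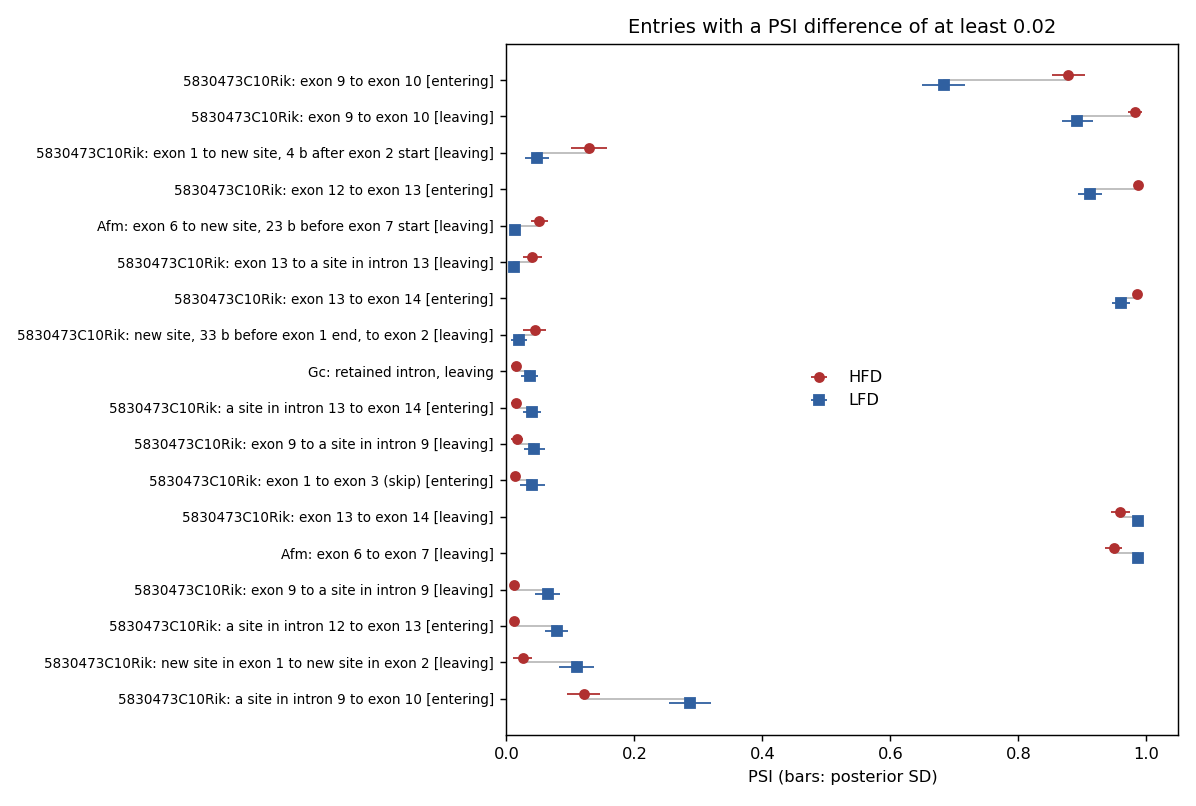
PSI on HFD (circles) and LFD (squares) of the 18 entries with a difference of at least 0.02, ordered by the difference from HFD higher (top) to HFD lower (bottom), with posterior SD as bars and 3 libraries pooled per diet. Entering and leaving say from which exon the choice was measured. The widest gap is the 5830473C10Rik junction into exon 10, with 0.878 on HFD and 0.683 on LFD.

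The start of 5830473C10Rik combined 2 donors in exon 1 with several acceptors. The annotated junction of exons 1 and 2 differed little, with 0.782 ± 0.034 on HFD and 0.789 ± 0.035 on LFD. An acceptor 4 bases into exon 2, joined to the annotated donor, had 0.129 ± 0.028 on HFD and 0.0481 ± 0.019 on LFD. The same acceptor joined to a donor 33 bases upstream had 0.0253 ± 0.015 on HFD and 0.110 ± 0.027 on LFD. These moved in opposite directions, by 0.0810 and -0.0848. Summed over donors, the shifted acceptor had 0.154 on HFD and 0.158 on LFD. The pooled PSI thus differed in which donor it was joined to and hardly in its total, with no entry called different. Summed over acceptors, the upstream donor had 0.0873 on HFD and 0.142 on LFD. Skipping of exon 2 summed to 0.0304 on HFD and 0.0449 on LFD, each over 2 entries. With a lowest PSI of 0.0125 per entry, the HFD sum is close to its floor.

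Toward the 3′ end, the junction of exons 12 and 13 had 0.987 ± 0.0039 on HFD and 0.912 ± 0.019 on LFD. An unannotated donor inside intron 12 took 0.0125 on HFD and 0.0782 ± 0.018 on LFD. Between exons 13 and 14 the 2 views disagreed. Leaving exon 13, the entry into an unannotated exon of 166 bases had 0.0406 ± 0.014 on HFD and 0.0125 on LFD, while entering exon 14 from it had 0.0143 on HFD and 0.0398 on LFD. No direction can be read for that exon. Intron 2, of 160 bases, was retained at 0.0274 on HFD and 0.0129 on LFD as seen from exon 2, and the interval of the difference held 0.

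**Figure D5:**
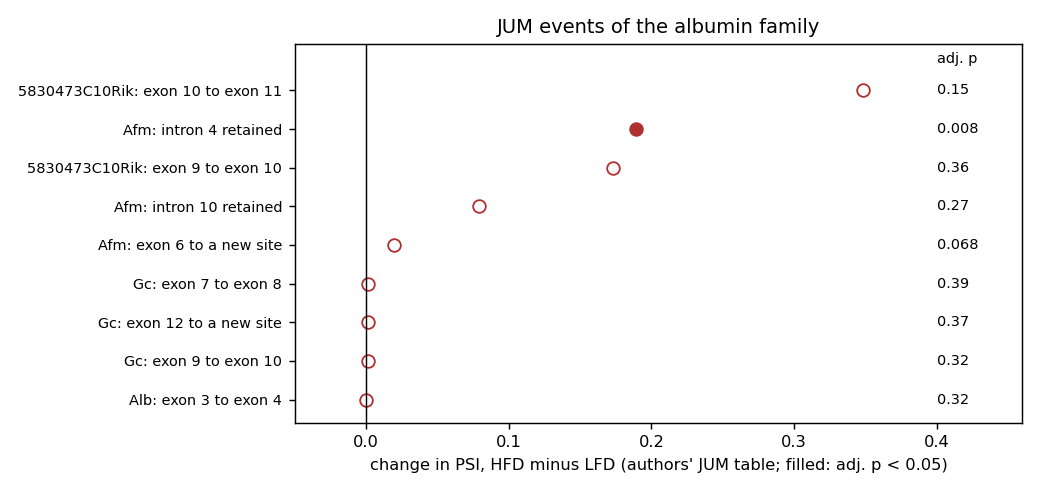
Change in PSI, HFD minus LFD (horizontal axis), of the 9 member events in the authors' deposited table from JUM, with the entry of positive change shown for each and the adjusted p at the right. The filled point, Afm intron 4 at 0.189, is the only one with an adjusted p under 0.05, and the 4 events of Gc and Alb lie at about 0.

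Precision was set by few entries. At PSI from 0.1 to 0.9 on both diets the family had 3 entries, all in 5830473C10Rik, with a median effective read number of 165 on HFD and 184 on LFD, against 169 on HFD and 220 on LFD over the series. The effective read number is the number of independent reads that would give the posterior variance.

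A list of 38 other plasma proteins secreted by hepatocytes gives the surroundings of the family. Of these, 37 had an LSV, with 451 LSVs in all, and the median largest difference was 0. A difference of at least 0.05 was reached by 2.00% of their LSVs. Apob, the structural protein of lipoproteins, was the 1 gene of the 37 with an entry called different (2.7%), against 138 of 5978 genes in the series (2.31%). It was also in the authors' deposited table of PSI differences. In the authors' deposited table from JUM, 13 of the 38 were listed and 5 of these had an event past the adjusted p (38.5%), namely Cp, Fetub, Hp, Igfbp4 and Itih1. Over all genes listed in the authors' deposited table from JUM, 63 of 367 did (17.2%). As only events with a p-value under 0.05 are listed there, both are shares of listed genes and not of all genes tested. A gene counted with any 1 event past the adjusted p, so its number of listed events matters too.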

How the data were processed

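Per the submitters' processing notes, FastQC and STAR were used with build mm10. No versions were given in the sources used here. The authors deposited a PSI fraction and its posterior variance per junction and diet, written by voila, the viewer of MAJIQ, per the file headers. They also deposited a table of PSI differences and a JUM table of events with a p-value under 0.05, with an adjusted p-value. The title line of the JUM table names another control than its change column, and the column (HFD minus LFD) was followed.

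LSVs were matched by identifier and entries by coordinates. Calls were made over all 68110 entries with Python 3.11.15 and SciPy 1.17.1. The rule was tested on simulated reads without spread between libraries, which checks its arithmetic only. Junctions were classed by the main GENCODE M21 transcript. JUM coordinates were moved by 2 bases at the upper end, after which 18 of 18 member entries matched. The members and lists were chosen with earlier results of these data known. Junctions were described for LSVs with a difference of at least 0.05 or listed in the authors' tables, and others by range. Other differences, thresholds and intervals were tried as alternatives.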

Additional observations from a re-analysis of the deposited data

How the results depend on the processing

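Lowering the difference a call needs gave 2 member entries at 0.1, 8 at 0.05 and 12 with no minimum, against 0 at 0.2; in the series these rules called 2.87%, 7.1% and 10.1% of entries. Counting all listed JUM events gave 9, against 1 past the adjusted p. The median effective read number on HFD was 281 with PSI from 0.01 to 0.99 and 144 with PSI from 0.2 to 0.8, against 165. On LFD it was 133 to 229 over the ranges of PSI tried, against 184. The range from 0.2 to 0.8 held 1 member entry only. The other alternatives tried gave the same counts and medians as reported. For calls these were a 99% interval, posterior SD under 0.05, spliced junctions and 1 kind of LSV. Each only narrows the rule or the entries, so a count of 0 could not change and this is no check. Medians over junctions or fewer LSVs had little room to move, as 42 of 57 LSVs had a largest difference under 0.0001. An adjusted p under 0.01 kept the 1 JUM event. A minimum of 0.95 on the probability column of the authors' deposited table of PSI differences also kept its 1 member LSV, but that column goes against its heading, with a value of 1 at a change of -1.88e-05, so this is no check. No paired analysis was possible because the tables hold 1 pooled value per diet, and for the same reason no library could be left out in turn.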
